A study of Solanum lycopersicum with 9 samples.

Results

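By their symbols, ZEP, NSY and NCED1 encode enzymes that act on the xanthophylls from which plants make abscisic acid (ABA), though NSY also has another name. They were followed in tomato roots through the probe sets to which the array's annotation gives 1 of these 3 gene symbols. The rule itself used no measured value, but the genes were picked with earlier results of these data known. The rule found 3 probe sets, 1 per gene, among 10038 tomato probe sets. RNA from roots of wild-type 76R tomato, grown in field soil, was hybridized to 9 Affymetrix Tomato Genome Arrays. The roots came from a buried ring of soil, the patch, 53 h after liquid had been injected into it. Per g of soil, the liquid brought 65 μg of NH4+-N in the high NH4+ treatment, 6.5 μg in the low NH4+ treatment and 0 μg in the water treatment, with 3 biological replicates each and 1 array per replicate. All groups shared the field soil, roots that mycorrhizal fungi had colonized and the injection of liquid, so the water group is the control for wetting the patch.

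ABA is the hormone by which plants respond to water deficit, and it is made from carotenoids. Zeaxanthin epoxidase, ZEP, turns zeaxanthin into violaxanthin by way of antheraxanthin. Neoxanthin synthase, NSY, turns violaxanthin into neoxanthin. NCED1 is a 9-cis-epoxycarotenoid dioxygenase that cuts 9-cis forms of these xanthophylls to xanthoxin, the first step that leads to ABA alone, and the wilty tomato mutant notabilis has lost it. The symbol NSY needs care. RefSeq lists Cyc-B as a synonym of the same gene and the annotation of the study names the probe set a chromoplast lycopene beta-cyclase, an enzyme that makes beta-carotene from lycopene. The probe set's name therefore points to 2 steps of the pathway, and the values hold for the probe set under either name.

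Signals are MAS5 summaries of a probe set, given as log2. A signal of 100, or 6.64 on the log2 scale, was taken as the detection limit, and 6670 probe sets that reached it on at least 1 array were tested, the 3 members among them. Between 52.2% and 61.9% of the tomato probe sets were at or above this limit on an array, and the median log2 signal of an array was between 6.87 and 7.59. The arrays farthest from the rest were low NH4+ replicate 2 and water replicate 3, whose scores on the first principal component (37.8% of the variance) were 52.7 and -40.3. With so few arrays per group, the precision of each value is limited by their number. In RNA from whole roots, fewer cells that express a gene and less RNA per cell cannot be told apart. Treatments were compared with limma, and a probe set was called, or passed the test, where its p adjusted over the 6670 probe sets was at most 0.1.

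All 3 genes had lower signals in high NH4+ roots than in roots given water, and all 3 passed the test there. ZEP and NCED1 also passed it in low NH4+ roots, and NSY had nearly the same signal in low NH4+ and water roots. High and low NH4+ roots did not differ past the threshold for any of the 3. The 3 genes are given in turn, in the order of the steps that the symbols ZEP, NSY and NCED1 name.

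ZEP had log2 signals of 9.19, 8.25 and 8.81 on water arrays 1, 2 and 3. Its log2 signals were 7.11, 7.74 and 7.15 in low NH4+ roots and 7.35, 7.10 and 7.46 in high NH4+ roots. Each NH4+ array was below each water array, the 2 NH4+ treatments overlapped, and ZEP was above the detection limit on all 9 arrays. In linear units the signal was between 305 and 584 in water roots, between 139 and 214 in low NH4+ roots and between 138 and 176 in high NH4+ roots. The mean log2 signal was 8.75 ± 0.47 in water, 7.34 ± 0.35 in low NH4+ and 7.31 ± 0.18 in high NH4+ roots (SD, n = 3 each). ZEP fell 2.73-fold in high NH4+ roots, a log2 fold change of -1.45 (standard error, SE, 0.27, 95% interval -2.06 to -0.84, adjusted p = 0.0448 from limma). It fell 2.67-fold in low NH4+ roots, a log2 fold change of -1.42 (SE 0.27, 95% interval -2.03 to -0.81, adjusted p = 0.0630 from limma). Both comparisons share the 3 water arrays and are not independent of each other.

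**Figure D1:**
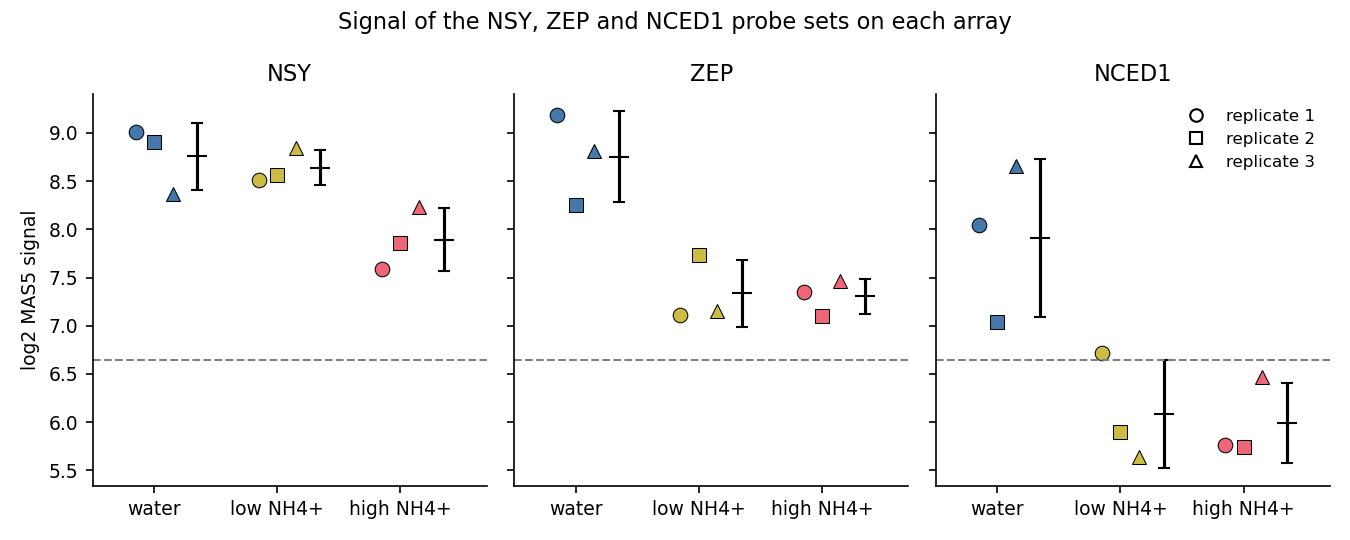
Log2 MAS5 signal (vertical axis) of the NSY, ZEP and NCED1 probe sets on each of the 9 arrays by treatment, with circles, squares and triangles for replicates 1, 2 and 3 and bars for the mean ± SD (n = 3). The dashed line is the detection limit of 6.64. ZEP is above it on every array, and NCED1 is above it on the 3 water arrays and on 1 low NH4+ array.

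NSY had log2 signals of 9.01, 8.90 and 8.36 in water roots. It had 8.51, 8.57 and 8.84 in low NH4+ roots and 7.59, 7.86 and 8.23 in high NH4+ roots. Each high NH4+ array was below each water array and each low NH4+ array, while the low NH4+ arrays lay within the range of the water arrays. The nearest arrays of high NH4+ and water, high NH4+ replicate 3 and water replicate 3, were close together, and these groups overlapped once each array was centred on its median. The mean log2 signal was 8.76 ± 0.35 in water, 8.64 ± 0.18 in low NH4+ and 7.89 ± 0.32 in high NH4+ roots (SD, n = 3 each). NSY fell 1.82-fold in high NH4+ roots, a log2 fold change of -0.87 (SE 0.23, 95% interval -1.39 to -0.34, adjusted p = 0.0912 from limma). In low NH4+ roots its log2 fold change over water was -0.12 (SE 0.23, 95% interval -0.64 to 0.41, adjusted p = 0.778 from limma). This interval holds no decrease larger than 0.64 on the log2 scale and includes 0, and the value was 0.11 after centring on the array medians. The NSY call in high NH4+ roots was lost in 8 of 11 other settings of the analysis.

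NCED1 had log2 signals of 8.05, 7.04 and 8.66 in water roots, the widest range of the 3 genes in that treatment. Its log2 signals were 6.72, 5.90 and 5.64 in low NH4+ roots and 5.77, 5.74 and 6.47 in high NH4+ roots. Each NH4+ array was below each water array, and the 2 NH4+ treatments overlapped. Water replicate 2 was the lowest water array for NCED1 and for ZEP. The mean log2 signal was 7.91 ± 0.82 in water, 6.09 ± 0.56 in low NH4+ and 5.99 ± 0.41 in high NH4+ roots (SD, n = 3 each). The log2 signal of NCED1 fell by 1.92 in high NH4+ roots (SE 0.43, 95% interval -2.91 to -0.94, adjusted p = 0.0646 from limma). It fell by 1.83 in low NH4+ roots (SE 0.43, 95% interval -2.81 to -0.84, adjusted p = 0.0954 from limma).

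The detection limit bears on the size of the NCED1 difference. NCED1 reached the limit on 3 of 3 water arrays, 1 of 3 low NH4+ arrays and 0 of 3 high NH4+ arrays, so it was tested mainly because of its level in water roots. Its linear signal was 265, 131 and 403 in water roots, 105, 59.7 and 50.0 in low NH4+ roots and 54.4, 53.5 and 88.4 in high NH4+ roots. With signals below the limit raised to 100, the estimate for NCED1 was 2.41-fold lower in high NH4+ than in water roots. This is a log2 fold change of -1.27 (SE 0.34, adjusted p = 0.0825 from limma). The same floor gave a log2 difference of -1.25 in low NH4+ roots, with an adjusted p of 0.122 from limma. The measured means of NCED1 differed 3.79-fold and 3.55-fold in high and low NH4+ roots, and part of these folds rests on signals below the limit.

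The test called 3 of 3 members lower in high NH4+ against water, where 3.79% of all 6670 probe sets were called lower. Given how the genes were picked, this count is a description of them. It called 2 of 3 members lower in low NH4+ against water, where 2.44% of probe sets were called lower. The 3 high NH4+ arrays were all below the 3 water arrays for 3 of 3 members and for 19.6% of probe sets. The 3 low NH4+ arrays were all below the water arrays for 2 of 3 members and for 17.5% of probe sets. The exact permutation test of each of these 5 separations gave p = 0.1, the smallest that 3 arrays against 3 allow (two-sided). Probe sets called lower in both treatments, as ZEP and NCED1 were, made up 0.885% of those tested.

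Signals as a whole were lower in the NH4+ treatments, and the members were set against that shift. The median log2 fold change of the 6670 probe sets was -0.08 in high NH4+ and -0.16 in low NH4+ roots. Relative to this median, the log2 fold change was -1.84 for NCED1, -1.37 for ZEP and -0.79 for NSY in high NH4+ roots. In low NH4+ roots these values were -1.67 for NCED1, -1.26 for ZEP and 0.04 for NSY. The NCED1 values rest in part on signals below the detection limit, and with the floor at 100 its fold changes over water were -1.27 in high and -1.25 in low NH4+ roots, so its rank is not given. Ordered from the most negative fold change, ZEP ranked 101 and NSY 391 of 6670 in high NH4+ roots. In low NH4+ roots ZEP ranked 219 and NSY 3592, near the middle.

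**Figure D2:**
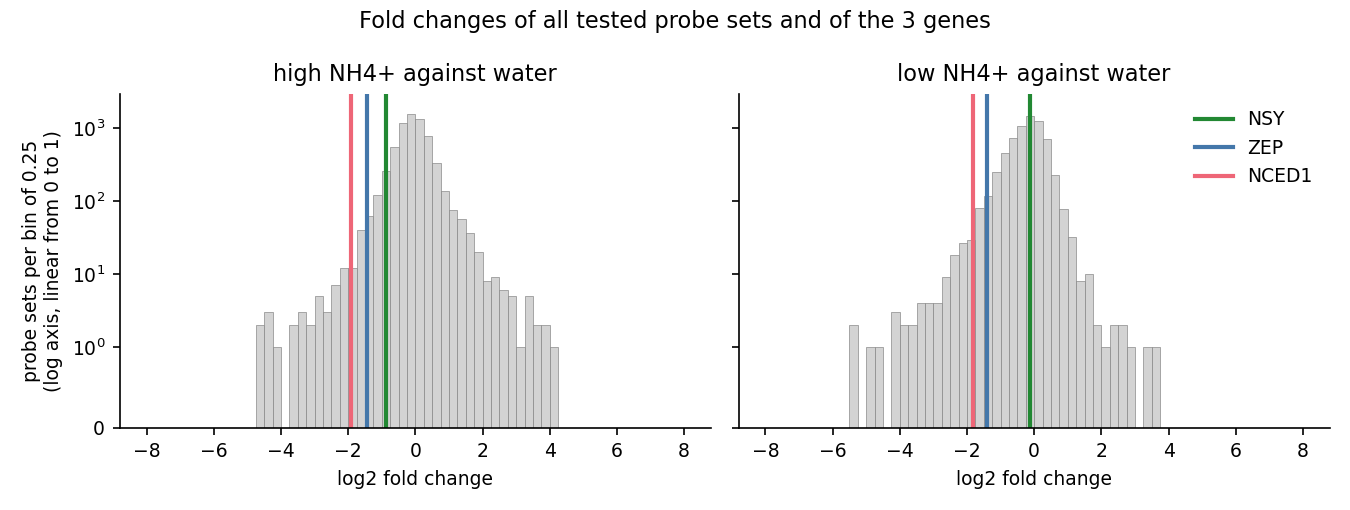
Number of the 6670 tested probe sets per bin of log2 fold change over water (log vertical axis, linear from 0 to 1) for high NH4+ on the left and low NH4+ on the right, with lines at the fold changes of NSY, ZEP and NCED1. The NSY line moves from -0.87 on the left to -0.12 on the right, while ZEP (-1.45 and -1.42) and NCED1 (-1.92 and -1.83, in part from signals below the detection limit) stay nearly in place.

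The scaling of the arrays decided some calls. With each array centred on its median, ZEP had a log2 fold change of -1.35 in high NH4+ and -1.19 in low NH4+ roots (adjusted p = 0.0411 and 0.0886 from limma), and both stayed past the threshold. NCED1 had -1.83 in high NH4+ roots (adjusted p = 0.0483 from limma) and -1.60 in low NH4+ roots, where the call was lost (adjusted p = 0.102 from limma). NSY had -0.77 in high NH4+ roots and its call was lost (adjusted p = 0.15 from limma). Over all probe sets the high NH4+ comparison called 182 higher and 253 lower as deposited, and 235 higher and 181 lower after centring. The low NH4+ comparison called 36 higher and 163 lower as deposited, and 69 higher and 80 lower after centring.

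**Figure D3:**
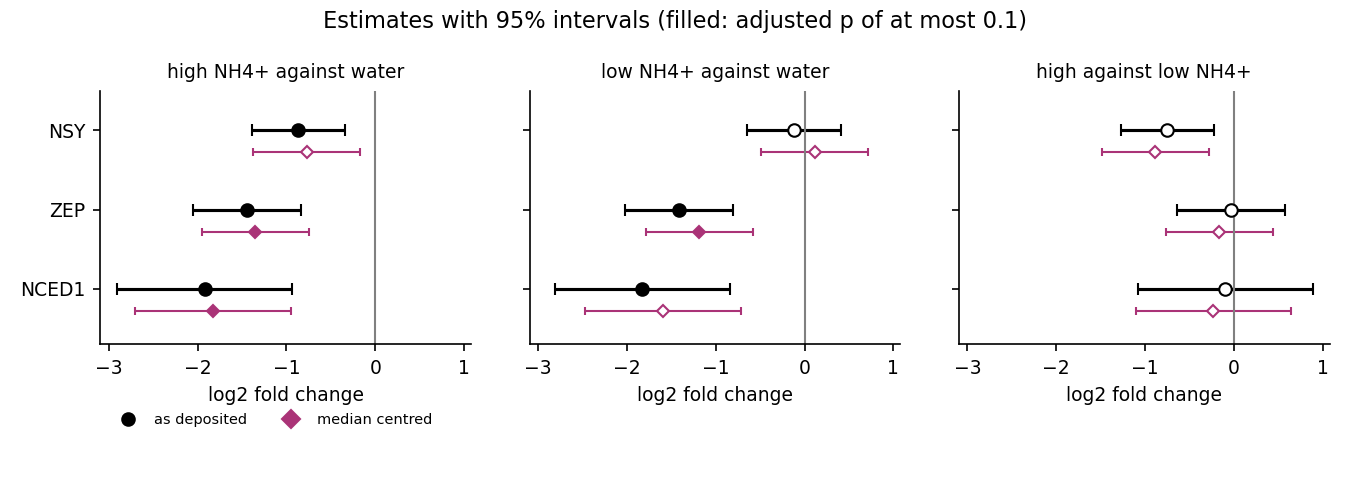
Log2 fold change (horizontal axis) of NSY, ZEP and NCED1 in the 3 comparisons with 95% intervals, from the values as deposited (black circles) and after centring each array on its median (purple diamonds), filled where the adjusted p from limma was at most 0.1. The filled circles in low NH4+ against water are ZEP at -1.42 and NCED1 at -1.83, and no symbol is filled in high against low NH4+.

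High against low NH4+, compared directly, called 0 of the 3 members by limma, and 0.9% of probe sets were called in either direction. NSY was the only member with an unadjusted p under 0.05 there. Its log2 difference, high minus low NH4+, was -0.75 (SE 0.23, 95% interval -1.28 to -0.22, adjusted p = 0.177 from limma). The high NH4+ arrays were all below the low NH4+ arrays for NSY, as for 9.64% of probe sets. The difference between high and low NH4+ was -0.03 for ZEP (95% interval -0.64 to 0.58, adjusted p = 0.958 from limma). It was -0.10 for NCED1 (95% interval -1.08 to 0.89, adjusted p = 0.917 from limma). These intervals leave room for a difference of either sign, most of all for NCED1, whose signals in both NH4+ treatments were mostly below the detection limit.

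The members were also compared with each other on the same array, since a ratio within an array is free of that array's scaling. The log2 difference between ZEP and NSY was between -0.65 and 0.45 on water arrays, between -1.69 and -0.83 on low NH4+ arrays and between -0.77 and -0.23 on high NH4+ arrays. ZEP was thus lower relative to NSY on each low NH4+ array than on any water or high NH4+ array. Its mean differed by -1.30 between low NH4+ and water and by 0.72 between high and low NH4+ (p = 0.1 each by the two-sided exact permutation test, the smallest possible, and 0.45 adjusted over 9 such comparisons). The difference between NCED1 and ZEP overlapped in all comparisons, with changes of -0.48 in high NH4+ and -0.41 in low NH4+ roots against water (exact permutation p = 0.4 and 0.5). The difference between NCED1 and NSY also overlapped in all comparisons.

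The calls were tested by leaving out 1 array at a time. In high NH4+ against water, the NCED1 call was lost without water replicate 1 or 3 (adjusted p = 0.197 and 0.152 from limma) and without high NH4+ replicate 1 or 2 (0.190 and 0.232). The ZEP call was lost without the same 4 arrays, with adjusted p of 0.169 and 0.115 for the water arrays and 0.161 and 0.201 for the high NH4+ arrays. The NSY call was lost without water replicate 1, 2 or 3 (adjusted p = 0.28, 0.129 and 0.103), without high NH4+ replicate 1 or 2 (0.257 and 0.289) and without low NH4+ replicate 1 (0.123). All 3 stayed lower than in water in each of these fits. Without water replicate 2 the adjusted p of ZEP and NCED1 were smaller, at 0.0209 and 0.0251.

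In low NH4+ against water, the ZEP and NCED1 calls held only without water replicate 2 (adjusted p = 0.0269 and 0.0417 from limma) or low NH4+ replicate 3 (0.0559 and 0.0826). Both were lost without water replicate 1 (0.185 for ZEP and 0.235 for NCED1) or 3 (0.203 and 0.272) and without low NH4+ replicate 1 (0.130 and 0.117) or 2 (0.137 and 0.209). They were also lost without high NH4+ replicate 1 (0.107 and 0.136), 2 (0.113 and 0.148) or 3 (0.117 and 0.143), whose arrays enter this comparison only through the shared estimate of spread. The log2 fold change of ZEP was between -1.67 and -1.20 and that of NCED1 between -2.27 and -1.46 over these 9 fits.

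**Figure D4:**
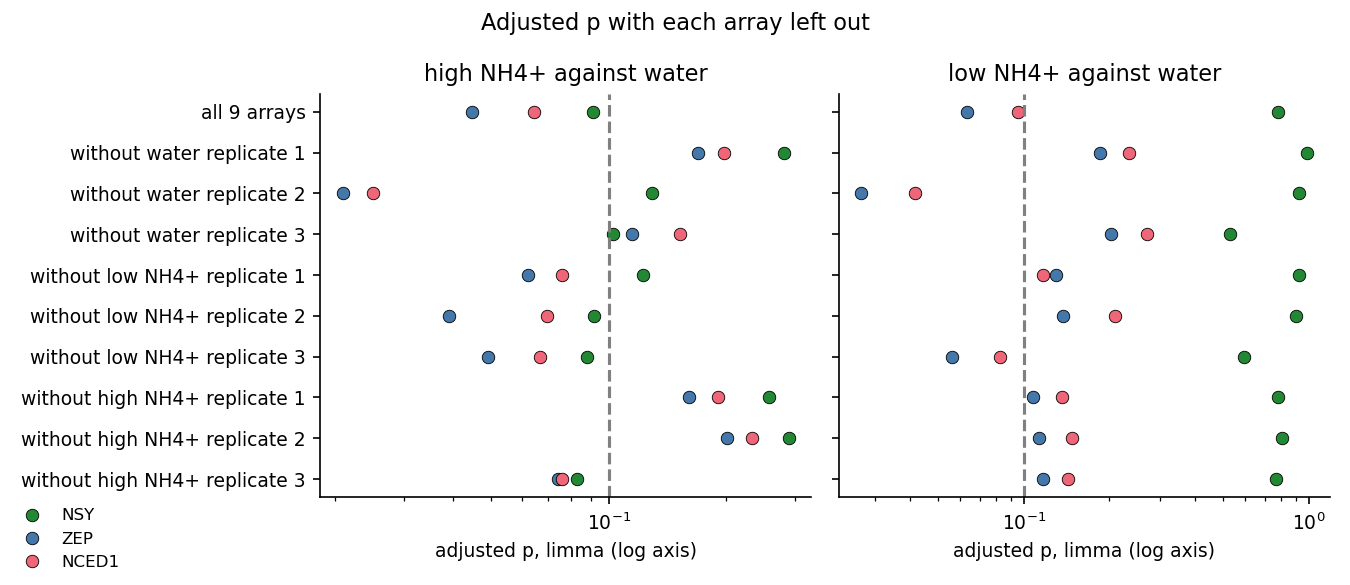
Adjusted p from limma (log horizontal axis) of NSY, ZEP and NCED1 with all 9 arrays and with each array left out in turn, for high NH4+ against water on the left and low NH4+ against water on the right. Points left of the dashed line at 0.1 are called. On the left 5 of 9 fits keep ZEP and NCED1 and 3 of 9 keep NSY, and on the right 2 of 9 keep ZEP and NCED1.

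Low NH4+ replicate 2 and water replicate 3, the arrays that stood apart, were left out together in a fit chosen after seeing the data. The log2 fold changes in high NH4+ roots were then -1.42 for ZEP (adjusted p = 0.0899 from limma), -1.55 for NCED1 (adjusted p = 0.141) and -1.06 for NSY (adjusted p = 0.10, just over the limit of 0.1). In low NH4+ roots they were -1.59 for ZEP (adjusted p = 0.25) and -1.36 for NCED1 (adjusted p = 0.386), and no probe set of the array was called by limma. ZEP in high NH4+ roots was the 1 member call that this fit kept.

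The steps before ZEP make the carotenoid substrates. Phytoene synthase, phytoene desaturase, zeta-carotene desaturase, lycopene cyclase and beta-carotene hydroxylase act in that order, and 7 of 11 probe sets for these and related enzymes were tested. In high NH4+ roots 1 of the 7, phytoene desaturase PDS, was called lower, beside 3.79% of all probe sets. PDS had log2 signals of 8.11, 7.90 and 7.87 in water, 6.93, 7.61 and 7.78 in low NH4+ and 6.60, 6.99 and 7.14 in high NH4+ roots. All its NH4+ arrays were thus below its water arrays, as for 19.6% of probe sets in high and 17.5% in low NH4+ roots. PDS stood in low NH4+ roots at -0.52 relative to water on the log2 scale (adjusted p = 0.226 from limma). Its log2 signal fell by 1.05 in high NH4+ roots (SE 0.25, adjusted p = 0.0677 from limma), and the call was lost without water replicate 1 or 3 (0.220 and 0.143) or high NH4+ replicate 1 or 2 (0.204 and 0.228). The PDS call was also lost with median centring (0.102), with no filter (0.124), by an F test made after the study's methods (0.128) and without both arrays that stood apart (0.131).

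The other 6 tested precursor probe sets did not pass the test. Phytoene synthase PSY2 had log2 signals of 9.32, 8.48 and 7.87 in water, 7.38, 8.42 and 7.96 in low NH4+ and 6.91, 7.53 and 7.33 in high NH4+ roots. Its high NH4+ arrays were all below its water arrays, as for 19.6% of probe sets, with a log2 fold change of -1.30 (adjusted p = 0.111 from limma). The median log2 fold change of the 7 precursor probe sets was -0.62 in high NH4+ roots, where all 7 were below 0, as were 57.5% of all probe sets. It was -0.30 in low NH4+ roots, where 4 of 7 were below 0 and 0 were called by limma. There the 2 tested probe sets of Psy1, another phytoene synthase, stood above 0, the higher at 0.87. Zeta-carotene desaturase ZDS, lycopene cyclase LCY1 and beta-carotene hydroxylase CrtR-b1 were the other 3 genes. The 2 probe sets of violaxanthin de-epoxidase VDE, which reverses the reaction of ZEP, the probe set of the lycopene cyclase CRTL-E-1 and 1 of the 3 probe sets of Psy1 did not reach the detection limit on any array.

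The steps after NCED1 turn xanthoxin into ABA. The last one, from abscisic aldehyde to ABA, is made by an aldehyde oxidase that needs a molybdenum cofactor, which the sulfurase FLACCA activates. Aldehyde oxidase genes AO1, TAO2 and TAO3 and FLACCA had 1 tested probe set each, and 0 of 4 were called by limma in either NH4+ treatment. FLACCA had similar log2 signals in all treatments, at 7.47, 7.37 and 7.22 in water, 7.36, 7.48 and 7.32 in low NH4+ and 7.61, 7.19 and 7.42 in high NH4+ roots. The log2 fold changes of the 4 over water lay between -0.32 and 0.30 in high NH4+ roots, with a median of 0.08. They lay between -0.60 and 1.02 in low NH4+ roots, the highest being TAO3, whose groups overlapped (adjusted p = 0.212 from limma). In high against low NH4+, TAO3 had a log2 difference of -1.34 (adjusted p = 0.198 from limma), the 1 of the 4 below 0. All its high NH4+ arrays were below its low NH4+ arrays, as for 9.64% of probe sets. The carotenoid cleavage dioxygenases CCD1A and CCD1B cut carotenoids at other bonds and do not lead to ABA. CCD1B had lower signals on all NH4+ arrays than on any water array, as for 19.6% of probe sets in high and 17.5% in low NH4+ roots. Its log2 fold changes of -0.56 and -0.61 in high and low NH4+ roots missed the threshold (adjusted p = 0.129 and 0.125 from limma). CCD1A had -0.09 and 0.56 (adjusted p = 0.836 and 0.171).

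**Figure D5:**
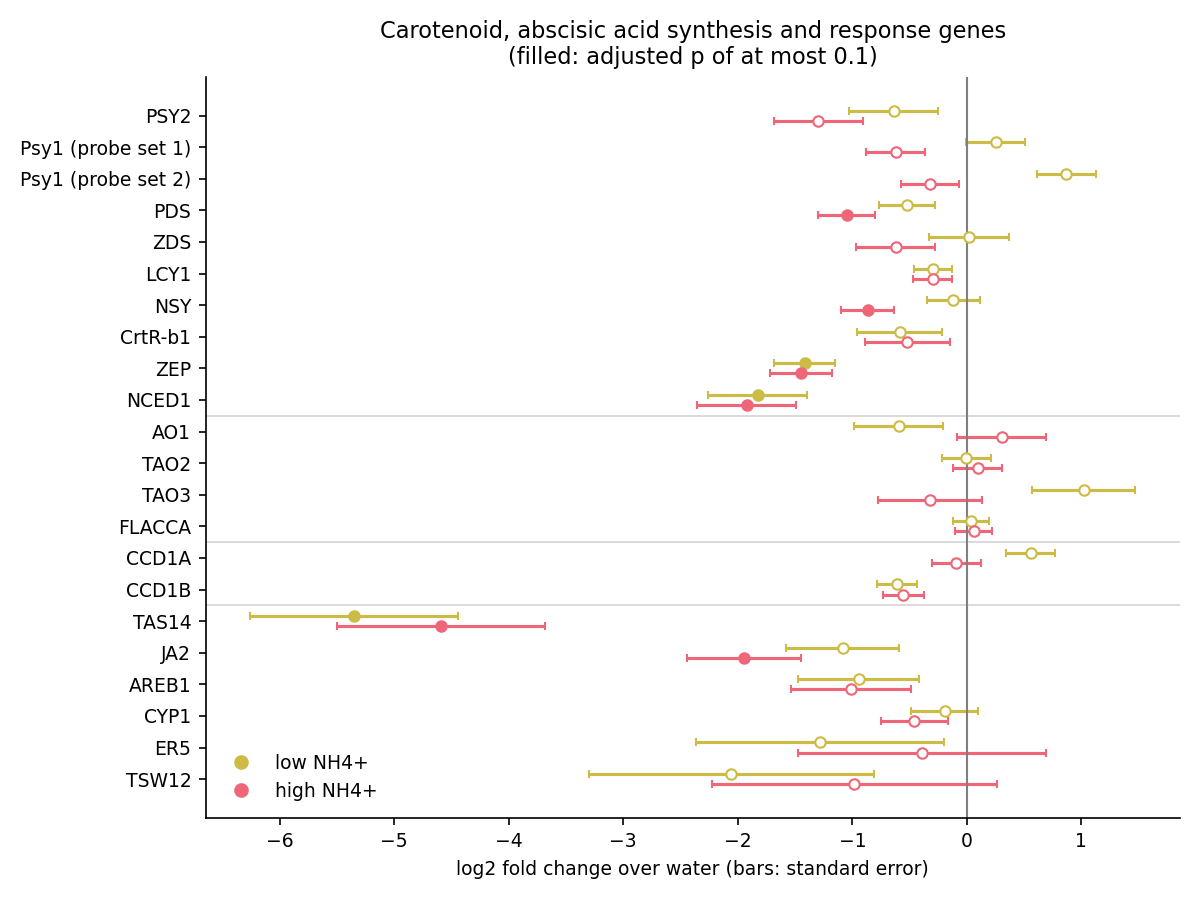
Log2 fold change over water (horizontal axis) with its standard error for the tested probe sets of carotenoid synthesis, ABA synthesis, carotenoid cleavage and ABA response, in low NH4+ (yellow) and high NH4+ (red) roots, filled where the adjusted p from limma was at most 0.1. The 4 probe sets of the aldehyde oxidases and FLACCA lie between -0.60 and 1.02 with none filled, and TAS14 lies at -5.35 and -4.59, or -4.79 and -4.03 with signals below the detection limit raised to it.

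Genes known to respond to ABA or dehydration formed a further group, of which 6 of 7 probe sets were tested. In high NH4+ roots 2 of 6 were called lower, the dehydrin TAS14 and the NAC transcription factor JA2. In low NH4+ roots 1 of 6, TAS14, was called lower. TAS14 had log2 signals of 12.18, 10.04 and 12.44 in water, 7.0, 6.22 and 5.40 in low NH4+ and 8.11, 4.96 and 7.82 in high NH4+ roots. All NH4+ arrays were below all water arrays, as for 19.6% of probe sets in high and 17.5% in low NH4+ roots. Water replicate 2 was again the lowest water array, as for ZEP and NCED1. The log2 signal of TAS14 fell by 4.59 in high NH4+ roots (SE 0.91, adjusted p = 0.0496 from limma). It fell by 5.35 in low NH4+ roots (SE 0.91, adjusted p = 0.0598 from limma). TAS14 was below the detection limit on low NH4+ replicates 2 and 3 and high NH4+ replicate 2, and with the floor at 100 its log2 fold changes were -4.03 in high and -4.79 in low NH4+ roots (adjusted p = 0.0356 and 0.0487). The high NH4+ call was lost without any one of water replicates 1 and 3 and high NH4+ replicates 1 and 2 (adjusted p = 0.186, 0.130, 0.161 and 0.188). The low NH4+ call was lost without water replicate 1 or 3, either of low NH4+ replicates 1 and 2 or high NH4+ replicate 3 (0.178, 0.191, 0.103, 0.152 and 0.105).

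JA2 had log2 signals of 8.73, 7.34 and 9.5 in water, 7.38, 7.28 and 7.66 in low NH4+ and 6.03, 6.60 and 7.10 in high NH4+ roots. Its high NH4+ arrays were all below its water arrays, as for 19.6% of probe sets, and its low NH4+ arrays overlapped with the water arrays. The log2 signal of JA2 fell by 1.95 in high NH4+ roots (SE 0.49, adjusted p = 0.0820 from limma). High NH4+ replicates 1 and 2 of JA2 were below the detection limit, and the fold change was -1.73 with the floor (adjusted p = 0.0839). This call was lost without any one of water replicates 1 and 3, low NH4+ replicate 1 and high NH4+ replicates 1 and 2 (adjusted p = 0.234, 0.181, 0.114, 0.236 and 0.259). AREB1, a bZIP factor that binds ABA response elements, had log2 fold changes of -1.01 and -0.95 in high and low NH4+ roots (adjusted p = 0.294 and 0.290 from limma), with overlapping groups. All 6 probe sets were below 0 in both treatments, with medians of -1.0 and -1.18, beside 57.5% and 64.8% of all probe sets below 0. AREB1 reached the detection limit on 4 of 9 arrays, and other probe sets of this group on as few as 2. The signs and medians of the group thus rest in part on signals below the limit.

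Markers of root and of green tissue were read on the same arrays. Of the root markers planned, 4 were matched by symbol (exp18, FER, NRAMP1 and PT1). Planned ammonium and nitrate transporter genes, which the study reports on this array, were not matched. The 4 matched markers were at or above the limit on each water and high NH4+ array, and 3 of 4 were on each low NH4+ array. There FER, a regulator of iron uptake, had log2 signals of 6.40, 5.95 and 6.40. FER was called lower in both NH4+ treatments, as ZEP and NCED1 were, and called higher with high NH4+ than with low NH4+. The other 3 were not called in any comparison. Of these, PT1 was close to the threshold in low NH4+ roots (log2 fold change -0.70, adjusted p = 0.109 from limma). Its low NH4+ arrays were all below its water arrays, as for 17.5% of probe sets. The study reports PT1 as lower there, on the array and by PCR. The log2 fold change of FER was -0.86 in high NH4+ roots (adjusted p = 0.0931 from limma). Leaving out 1 array gave adjusted p of 0.0451 to 0.259 from limma. The FER call ended for water replicates 1 and 3, low NH4+ replicate 1 and each high NH4+ array. In low NH4+ roots all 3 arrays were below the limit, and the log2 fold change with the floor was -1.73 (adjusted p = 0.0297), while without both arrays that stood apart the call was lost (adjusted p = 0.117). Between the NH4+ treatments the adjusted p was 0.0922 as deposited and 0.115 with the floor. The summed linear signal of the 4 root markers was between 2104 and 2446 on water arrays, between 1452 and 1513 on low NH4+ arrays and between 1541 and 2119 on high NH4+ arrays. PT1 had the highest signal of the 4 and so weighs most in this sum. Of the 6 green tissue markers matched by symbol, the chlorophyll-binding proteins CAB5 and CAB6A were below the limit on all arrays, and 0 of the 4 tested were called by limma. The summed linear signal of the 6 was between 582 and 1145 on water arrays, highest on water replicate 3, between 257 and 693 on low NH4+ arrays and between 194 and 494 on high NH4+ arrays. The 4 tested green tissue markers had median log2 fold changes of -1.29 in high NH4+ and -1.17 in low NH4+ roots, in the same direction as ZEP and NCED1. Among them PsbQ reached the limit on 1 array, water replicate 3, and PSBO on 4 arrays. The medians of these markers thus rest in part on signals below the limit. The part of these markers in the results for ZEP, NSY and NCED1 was not tested.

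The genes with the most similar pattern were found by Pearson's correlation of log2 signal over the 9 arrays among 671 other tested probe sets with a gene symbol. This is a description, since the arrays share 3 treatments and their scaling. NCED1 was most like PTI6 (r = 0.96), THM27 (0.95), LOC543517 (0.94), CCD1B (0.94) and GRAS10 (0.94), and 23 probe sets had r above 0.9. ZEP was most like LOC544279 (r = 0.98), SPS (0.97), HSP17-6 (0.94), DXS (0.93) and PPCK1 (0.92), and 13 had r above 0.9. NSY was most like LOC543810 (r = 0.97), GABA-TP3 (0.95), RAB1B (0.95), LOC543815 (0.95) and AOX1a (0.93), and 6 had r above 0.9. The 3 lists of 5 shared no gene. DXS, which makes the first intermediate of the plastid isoprenoid pathway that feeds carotenoid synthesis, had a log2 fold change of -1.64 in high NH4+ roots (adjusted p = 0.0639 from limma) and of -1.12 in low NH4+ roots, where it missed the threshold (adjusted p = 0.146).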

How the data were processed

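RNA of patch roots was measured on 9 Affymetrix Tomato Genome Arrays, 3 per treatment. The authors made the signals with MAS5 in Affymetrix Expression Console and deposited the natural log of each. Neither version is given in the sources used here. MAS5 scales each array, and its low signals are noisy on a log scale. The deposited natural log values were converted to base 2 and not normalized further. Treatment and replicate came from the label of each array. Of 10209 probe sets, 171 controls were left out, and 6670 that reached a natural log of 4.605, a signal of 100, on 1 or more arrays were tested with limma 3.58.1 in R 4.3.3. One fit of the 3 groups had 6 residual and 2.87 prior degrees of freedom. P-values were adjusted over all 6670 probe sets within each comparison (Benjamini and Hochberg), and a call is an adjusted p of at most 0.1, the false discovery rate of 10% of the study. Exact permutation tests were two-sided. Tested on simulated data for high NH4+ against water (6670 probe sets, 20 simulations, 200 changed), 57.8% of the 2-fold changes and 90.2% of the 4-fold changes were recovered, and 9.97% of the calls were false. The simulated errors were normal and independent between probe sets, with no shift shared by a whole array. These rates therefore need not hold for the real arrays.

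Gene symbols came from the platform's table, which names 909 of the 10038 tomato probe sets, 885 of them matched to a RefSeq gene of assembly SLM_r2.1 for synonyms. The members and lists were chosen with earlier results of these data known. The genes named are every probe set of the members and of the carotenoid, ABA synthesis and cleavage lists, the called members of the response list and its 3 lowest p in high NH4+ against water, and the 5 symbols most like each member. Alternatives were no filter, a filter of 3 arrays, quantile normalization, median centring and a floor of 100. An F test of 1 probe set at a time, made after the study's methods, was another. Others were limma-trend, fitting the 2 compared groups alone, blocking on replicate number, a 5% false discovery rate and omitting 1 array at a time. A fit without low NH4+ replicate 2 and water replicate 3 was added after seeing the data. Sequences of the 3 genes were not used here. Figures were drawn with matplotlib 3.10.9 in Python 3.11.15.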

Additional observations from a re-analysis of the deposited data

How the results depend on the processing

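The direction of the 5 called member differences was kept in each of 11 other settings and in each fit without 1 array. The calls were not. In high NH4+ against water (3 members called), leaving out 1 array gave log2 fold changes of -2.36 to -1.55 for NCED1, -1.70 to -1.23 for ZEP and -1.06 to -0.71 for NSY, and between 0 and 3 calls. The 5% false discovery rate kept 1 call (ZEP; NCED1 at -1.92 and NSY at -0.87 were lost). No filter also kept 1 (ZEP) and lost NCED1 (adjusted p = 0.121) and NSY (0.159), with more probe sets tested. The methods' F test kept 0, with NCED1 at -1.92, ZEP at -1.45 and NSY at -0.87 (adjusted p = 0.140, 0.105 and 0.147, against unadjusted p of 0.00897, 0.00247 and 0.0111). NSY alone was lost with quantile normalization (-0.78), median centring (-0.77), only the 2 groups compared (-0.87) and the replicate block (-0.87). Without the 2 arrays that stood apart 1 call was kept, and NCED1 (-1.55) and NSY (-1.06) were lost.

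In low NH4+ against water (2 members called), leaving out 1 array gave -2.27 to -1.46 for NCED1, -1.67 to -1.20 for ZEP and -0.31 to 0.0078 for NSY, and between 0 and 2 calls. Calls fell to 0 with no filter, the F test, only the 2 groups compared and the 5% rate (NCED1 at -1.83 and ZEP at -1.42 in each), with quantile normalization (-1.36 and -1.14) and without the 2 arrays that stood apart (-1.36 and -1.59). Median centring (-1.60) and the floor (-1.25) lost NCED1 and kept 1 call. NSY turned to 0.11 with quantile normalization and with median centring. In high against low NH4+ (0 members called in any setting by limma), leaving out 1 array gave -0.33 to 0.22 for NCED1, with 0.22, 0.017 and 0.030 without low NH4+ replicate 1 and high NH4+ replicates 1 and 2. ZEP was between -0.14 and 0.17, with 0.17 and 0.071 without low NH4+ replicate 2 and high NH4+ replicate 2, and 0.17 without the 2 arrays that stood apart. The cause of these changes was not tested.

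The number of other carotenoid, ABA and response probe sets called was 3 in high NH4+. These were 1 of 7 precursor, 2 of 6 response, 0 of 4 later-step and 0 of 2 cleavage probe sets. The number was 1 with no filter, the 5% rate or without the 2 arrays that stood apart, 0 with the F test and between 0 and 5 without 1 array. In low NH4+ it was 1, but 0 with the 5% rate, the F test or without the 2 arrays, and between 0 and 5 without 1 array. In high against low NH4+ it was 0, but 1 with the floor or limma-trend, and 0 to 1 without 1 array. Over all probe sets, 435 were called in high NH4+ (99 to 736 in other settings, 6 to 728 without 1 array), 199 in low NH4+ (0 to 283, and 4 to 1128) and 60 between the NH4+ treatments (0 to 100, and 0 to 862).

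The plants of the study stood in blocks, but neither the labels nor the methods tie a replicate number to a block, and the study's array model had no block term. Same-numbered arrays of 2 treatments had correlated deviations (r over 0.1) in 2 of 9 pairs, and other pairs in 8 of 18. With the replicate block, 205 probe sets were called in high NH4+ and 256 in low NH4+, the ZEP and NCED1 calls held in both, and the NSY call in high NH4+ was lost (adjusted p = 0.152). Signals near the limit of 100 bound what can be said of NCED1 in NH4+ roots.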
